A study of Mus musculus with 14 samples.

Results

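The genes described here are 33 interferon-stimulated genes, chosen by name as known members of the interferon response and followed over cell line, TGF-β and siRNA. All 33 were found under those names in both expression tables, among 23282 genes. They comprise transcription factors (Stat2, Irf1, Irf7, Irf9), the IFIT and OAS families and other genes of the antiviral response (Ifit1, Ifit2, Ifit3, Isg15, Rsad2, Oasl1, Oasl2, Oas1a, Oas2, Oas3, Bst2, Mx1, Mx2, Rtp4, Xaf1, Cmpk2, Ifi35, Ifi44), sensors of foreign nucleic acid (Ddx58, Ifih1, Dhx58, Zbp1), ubiquitin and ADP-ribosyl enzymes (Usp18, Trim25, Dtx3l, Parp9, Parp14) and guanylate-binding proteins (Gbp2, Gbp3). Mx2 is annotated as a polymorphic pseudogene in the mouse reference.

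Interferons bound to their receptors activate JAK kinases, which phosphorylate STAT proteins. A complex that includes Stat2 and Irf9 binds interferon-stimulated response elements, and gamma-activated sites are a second type of element, so that a large set of antiviral genes is transcribed. Part of the set can also be switched on by double-stranded RNA through the sensors Ddx58 (RIG-I), Ifih1 (MDA5) and Tlr3, which is why the genes are often followed in siRNA experiments. Many of them are kept at a low level in unstimulated epithelial cells.

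The RNA-seq libraries came from EpH4, an established mouse line of mammary gland epithelium, and EpRas, derived from it by transformation with H-Ras. Each line was left untreated or was given TGF-β3 at 1 ng/ml for 48 h, with 2 libraries per group, and 8 libraries in all. A further set of EpRas cells received a negative control siRNA (siNC) or 1 of 2 siRNA pairs, each pair joining an siRNA against Etv4 to 1 against Etv5 (both ETS transcription factors), by transfection with RNAiMAX, again without and with TGF-β, giving 1 library per condition and 6 in all. EpH4 was cultured in 10% fetal bovine serum and EpRas in 4%, so that line and serum cannot be told apart in any comparison of the lines, and EpRas is 1 derivative of 1 parental line. The study calls the libraries of a group biological replicates. The labels do not say how they were cultured, and the p-values measure the spread between these 2 libraries per group. The untransfected and the transfected libraries were normalized separately. In bulk RNA, fewer cells expressing a gene and less RNA per cell cannot be told apart.

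Levels are given in FPKM, a fragment count scaled to transcript length and to the number of mapped fragments. Tests were made with limma on log2(FPKM + 1) over 9100 genes with a value of 5 FPKM or more in some untransfected library, and a gene is called at a Benjamini-Hochberg adjusted p under 0.05. A fold change on this scale understates the change of low genes. Of the 33 genes 19 were tested and 14 stayed under the filter. The lowest maximum inside the filter was that of Parp14 (5.02 FPKM) and the highest one outside was that of Oas3 (3.71 FPKM). Because 8 of the 19 passed only through the EpH4 libraries with TGF-β, and 14 only through EpH4 libraries of either kind, the number of tested genes that differ between the groups is partly fixed by the filter. Such counts and medians are therefore descriptions, and for the 33 genes counts with no filter are given after them.

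The epithelial keratins Krt8 and Krt18 were abundant in every library. All 8 epithelial markers together summed to between 3247 and 3760 FPKM in untreated EpH4 and between 4784 and 5142 in EpH4 with TGF-β. In EpRas they summed to between 2451 and 3292 FPKM, and in EpRas with TGF-β to between 1853 and 3488. Part of these markers were lower in EpRas, as given below. Of 13 leukocyte marker genes 7, among them Ptprc (CD45), were listed at 0 in all 8 untransfected libraries. The remaining leukocyte markers summed to between 1.96 and 2.44 FPKM in untreated EpH4, between 8.59 and 10.2 in EpH4 with TGF-β, between 4.50 and 5.34 in EpRas and between 6.76 and 8.27 in EpRas with TGF-β. Of 10 genes encoding interferons 8 were listed at 0 in all 8 libraries. Ifnb1 reached 0.415 FPKM in 1 EpH4 library with TGF-β, and Ifng 0.197 FPKM in 1 EpRas library with TGF-β. Relative depth, recovered from the steps between low FPKM values, ran from 0.609 to 1.36 among the untransfected libraries and from 1.27 to 2.2 among the transfected ones.

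The promoters of the genes were searched for elements of the pathway. RefSeq promoter sequences (GRCm38.p6, 250 bases before to 50 after the start) were matched for 24 of the 33 genes. The core of the interferon-stimulated response element, spelled as GAAA, any 2 bases and GAAA again, was searched on both strands and was found in windows of 12 of the 24 genes, against 3.99% of all genes in the table (3.44% of its 32851 windows). The letters TTCNNNGAA, the core of the gamma-activated site, were found in windows of 5 of the 24 (Bst2, Ifi35, Ifit2, Irf1 and Oas1a) against 9.55% of all genes (8.30% of windows). A match is a run of letters and not a measured binding site. The stretches below, 60 bases each and written 5′ to 3′ on the strand of the gene, are shown because they belong to genes whose levels are compared here, with the response element match, or its reverse complement, in capitals.
Isg15: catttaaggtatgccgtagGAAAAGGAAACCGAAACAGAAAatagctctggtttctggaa
Bst2: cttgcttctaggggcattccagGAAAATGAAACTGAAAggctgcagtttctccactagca
Stat2: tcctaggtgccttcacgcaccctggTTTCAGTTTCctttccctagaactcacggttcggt
Oas3: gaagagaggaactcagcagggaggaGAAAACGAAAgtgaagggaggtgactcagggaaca
Ifit1: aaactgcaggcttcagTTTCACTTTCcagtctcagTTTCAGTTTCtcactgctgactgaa
The Isg15 stretch lies at chr4:156200856-156200915 on the minus strand, with 3 overlapping matches. Bst2 has 2 overlapping matches, at chr8:71537565-71537624 on the minus strand. Those of Stat2 (chr10:128270251-128270310, plus strand) and Oas3 (chr5:120777700-120777759, minus strand) hold 1 match each, and that of Ifit1 (chr19:34640769-34640828, plus strand) holds 2.

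Bst2 (tetherin), which holds budding virus at the cell surface, Irf1, an interferon-induced transcription factor, and Ifi35 were the genes of the set with the highest mean levels. Bst2 measured 421 and 284 FPKM in untreated EpH4, 476 and 512 in EpH4 with TGF-β, 97.0 and 104 in EpRas and 53.8 and 92.7 in EpRas with TGF-β. At the other end, Mx1 was above 0 in 1 of the 8 untransfected libraries (0.123 FPKM, EpH4 with TGF-β), and Oas2 did not exceed 0.0866 FPKM in any of them. In the untransfected cells the 33 genes were spread over several orders of magnitude, and most were low: only 5 reached 5 FPKM in an untransfected EpRas library.

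**Figure D1:**
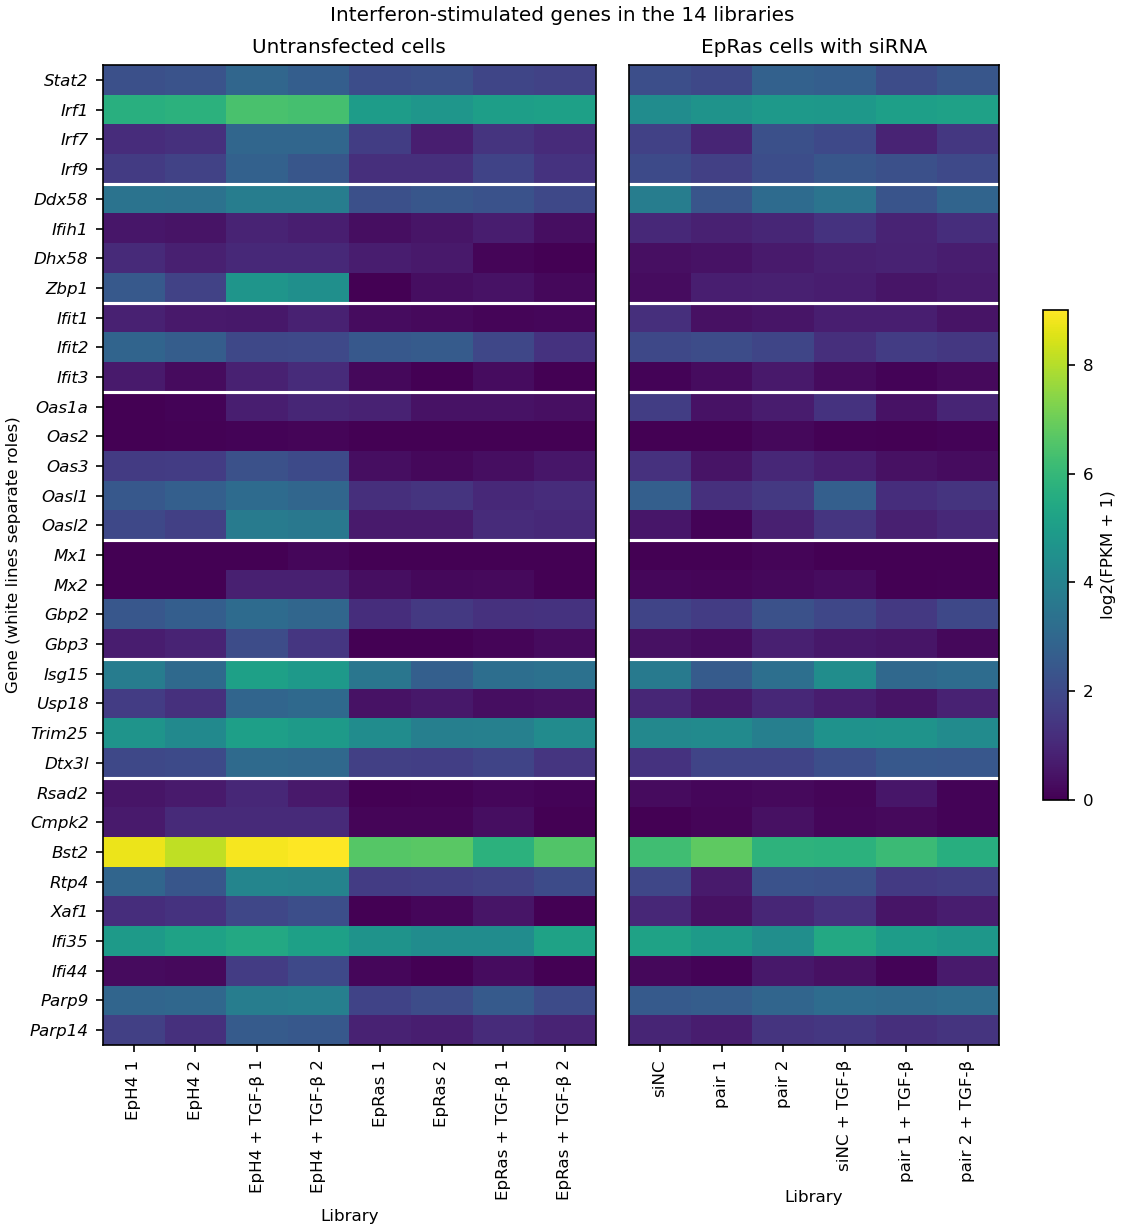
Level of each of the 33 interferon-stimulated genes (rows) in each of the 14 libraries (columns), coloured by log2(FPKM + 1). The 8 untransfected and the 6 transfected libraries were normalized separately. Brighter colours are higher levels. Most genes are brightest in the 2 EpH4 libraries with TGF-β and darker in the 4 EpRas libraries.

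The comparison of the lines asks how the level of these genes differed between EpRas and its parental line. Without TGF-β, 10 of the 19 tested genes were lower in EpRas and 0 were higher (limma, Benjamini-Hochberg adjusted p under 0.05), where 9.11% of all tested genes were called lower and 8.45% higher. With TGF-β, 17 were lower and 0 were higher, where 12.3% of all tested genes were called lower and 8.92% higher. None of the 19 had a positive log2 fold change in either state, so that the counts of higher genes at an unadjusted p under 0.05 were also 0. The 10 genes called lower without TGF-β (Bst2, Ddx58, Gbp2, Irf1, Oasl1, Oasl2, Parp9, Rtp4, Usp18 and Zbp1) were all among the 17 called lower with it. The 7 others (Dtx3l, Irf7, Irf9, Isg15, Parp14, Stat2 and Trim25) were called in the comparison with TGF-β and not in the one without. The median log2 fold change of the 19 genes was -0.88 without TGF-β and -1.69 with it, against 0.00 and -0.01 over all genes tested.

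With no filter on low values, all 33 genes were tested among 15244. Then 13 of the 33 were called lower in EpRas without TGF-β, where 7.89% of all genes were called lower, and 26 with TGF-β, where 10.8% were. None was called higher in either state, where 6.84% and 7.29% of all genes were. By order alone, the 2 EpRas values were under the 2 EpH4 values in 24 of the 33 genes without TGF-β, against 26.4% of all genes above 0, and in 31 with TGF-β, against 28.7%. The exceptions with TGF-β were Mx1 and Ifi35, whose ranges overlapped, and without TGF-β Oas1a and Mx2 lay higher in both EpRas libraries.

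The comparison with TGF-β asks whether the cytokine changed the same genes in each line. In EpH4, 11 of the 19 tested genes rose and 0 fell (limma, adjusted p under 0.05), where 6.48% of all tested genes rose and 2.91% fell. Ifit2 was the only tested gene with a lower mean (-0.80 ± 0.22 SE on the log2 scale, unadjusted p = 0.0068, adjusted p = 0.0623). In EpRas 0 of the 19 were called in either direction, where 1.90% of all tested genes rose and 1.92% fell. At an unadjusted p under 0.05 there were 2 in EpRas, Ifit2 (-0.91 ± 0.22) and Oasl2 (0.42 ± 0.15), where 15.8% of all genes were. The alternative settings called 0 or 1. The median log2 fold change was 0.89 in EpH4 and 0.05 in EpRas, against -0.02 over all genes in each line. Of the 11 genes that rose, 7 (Irf7, Irf9, Oasl2, Usp18, Parp14, Dtx3l and Zbp1) passed the filter only through the treated EpH4 libraries. With no filter, 12 of the 33 rose in EpH4, where 4.92% of all genes did, Irf9 and Parp9 were no longer called, and 0 were called in EpRas. Most of the 11 calls were lost without either treated EpH4 library, and several without either untreated one. In these fits, which leave 1 library in a group, fewer of all genes were called as well. All 11 genes that rose in EpH4 were also among the 17 that were lower in EpRas with TGF-β. These 2 comparisons share the EpH4 libraries with TGF-β, and their values are therefore given side by side below and not as separate evidence.

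A test of the difference between the lines in the response to TGF-β (an interaction term in the same limma fit) called 2 genes of the set, Oasl2 and Usp18, where 0.626% of all tested genes were called in that direction. At an unadjusted p under 0.05 there were 12 of the 19, where 10.9% of all genes were. Both called genes passed the filter only through the treated EpH4 libraries. With no filter 2 of the 33 were called, where 0.623% of all genes were. For the other genes that rose in EpH4 and were not called in EpRas, a difference in response between the lines was not called. No fit that left out 1 library kept both calls, and calls over all genes went down in most of these fits as well.

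**Figure D2:**
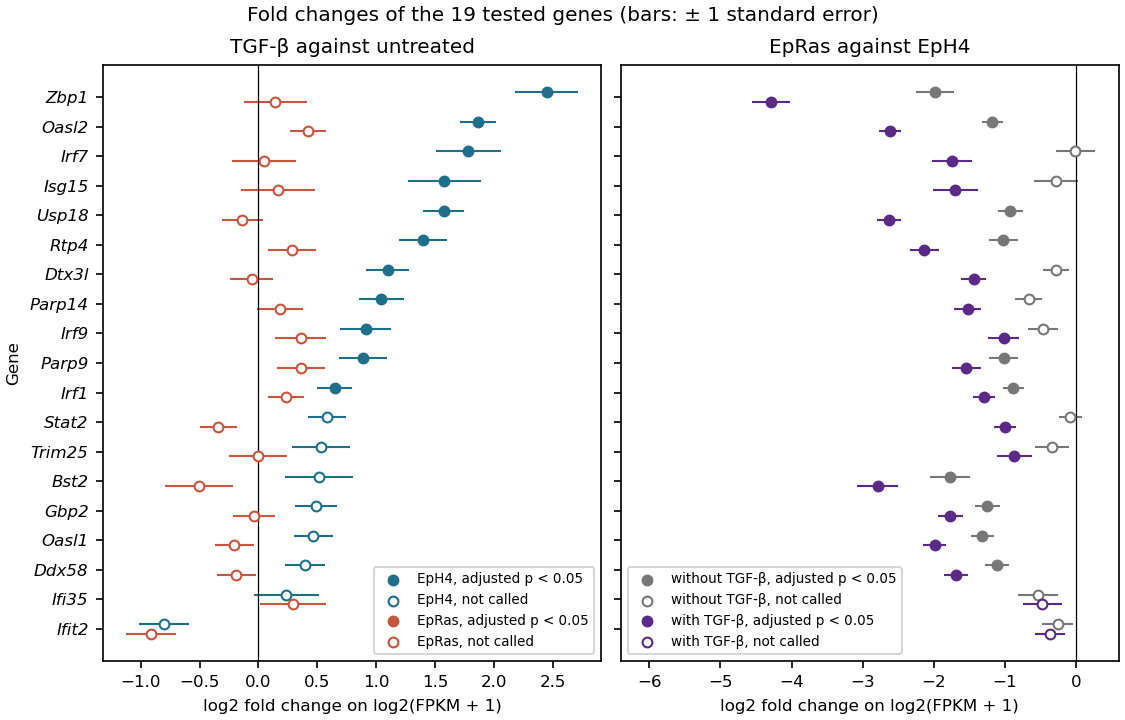
Log2 fold changes (points) with ± 1 standard error (bars) of the 19 tested genes on log2(FPKM + 1), for TGF-β in each line (left) and for EpRas against EpH4 (right). Filled points have an adjusted p under 0.05: 11 in EpH4 and 0 in EpRas on the left, 10 without TGF-β and 17 with TGF-β on the right.

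Among the transcription factors, Irf1 had the highest levels. It measured 50.8 and 53.9 FPKM in EpH4, 85.3 and 79.7 in EpH4 with TGF-β, 30.2 and 25.8 in EpRas and 32.3 and 33.8 in EpRas with TGF-β. All EpRas libraries lay below all EpH4 libraries. Irf1 was lower in EpRas, with a log2 fold change of -0.88 ± 0.15 without TGF-β (adjusted p = 0.00761, limma) and -1.29 ± 0.15 with it (0.00105), and rose by 0.65 ± 0.15 with TGF-β in EpH4 (0.0383).

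Irf7, which drives the second wave of interferon production, measured 1.2 and 1.36 FPKM in EpH4, 6.79 and 6.90 with TGF-β, 2.07 and 0.672 in EpRas and 1.56 and 1.14 in EpRas with TGF-β. The EpH4 libraries with TGF-β stood clear of the other 6, which overlapped. With TGF-β, Irf7 rose in EpH4 by 1.78 ± 0.27 (log2, adjusted p = 0.00821, limma) and was lower in EpRas, at -1.74 ± 0.27 (0.0044), while the lines did not differ detectably without it (-0.01 ± 0.27, 0.991). The interaction term was -1.74 ± 0.39 (0.139) and was not called.

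Irf9 and Stat2 are the DNA-binding and activating subunits of the complex that reads the response element. Irf9 levels were 1.99 and 2.46 FPKM in EpH4, 5.89 and 4.30 with TGF-β, 1.31 and 1.35 in EpRas and 2.53 and 1.52 in EpRas with TGF-β. The 2 EpH4 libraries with TGF-β were again the highest, and the rise in EpH4 was 0.91 ± 0.22 (log2, adjusted p = 0.0422, limma, and 0.0579 with no filter). Stat2 levels were 3.57 and 3.95 FPKM in EpH4, 6.87 and 5.45 with TGF-β, 3.40 and 3.62 in EpRas and 2.70 and 2.44 in EpRas with TGF-β. Thus Stat2 was lower in EpRas with TGF-β (-1.0 ± 0.16, 0.00459) but overlapped between the lines without it, and its value with TGF-β in EpH4 was 0.58 ± 0.16 (0.0667), short of the threshold.

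Zbp1 is a sensor of Z-form nucleic acid that can start necroptosis. On log2(FPKM + 1) it had the largest fold change of the 19 genes in both line comparisons and with TGF-β in EpH4. Under the alternative settings its line comparison without TGF-β ran from -4.20 to -0.73, where that of Bst2 ran from -2.06 to -1.49. Zbp1 measured 4.76 and 2.40 FPKM in EpH4, 25.1 and 21.3 with TGF-β, 0 and 0.259 in EpRas and 0.342 and 0.143 in EpRas with TGF-β. All 4 EpRas libraries lay below 1 FPKM and both EpH4 groups above 2. The log2 fold change between the lines was -1.98 ± 0.27 without TGF-β (adjusted p = 0.00312, limma) and -4.29 ± 0.27 with it (6.12e-05). TGF-β raised Zbp1 in EpH4 by 2.45 ± 0.27 (0.00168) and gave 0.14 ± 0.27 in EpRas (0.856). The interaction term was -2.31 ± 0.38 (0.051), just short of the threshold.

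Ddx58, the RNA sensor RIG-I, measured 9.84 and 9.45 FPKM in EpH4, 12.9 and 13.0 with TGF-β, 3.54 and 4.37 in EpRas and 3.81 and 2.91 in EpRas with TGF-β. The lines did not overlap. Ddx58 was lower in EpRas, at -1.11 ± 0.17 without TGF-β (log2, adjusted p = 0.00498, limma) and at -1.69 ± 0.17 with it (0.000505), and TGF-β was not called in EpH4 (0.39 ± 0.17, 0.207). The other RNA sensors, Ifih1 and Dhx58, were untested and stayed at or under 1.08 FPKM in every untransfected library.

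Isg15, a ubiquitin-like modifier that is among the most strongly interferon-induced genes, lies at chr4:156199424-156200818 (minus strand, mm10). It measured 12.6 and 7.47 FPKM in EpH4, 34.0 and 28.3 with TGF-β, 10.6 and 5.69 in EpRas and 8.59 and 9.21 in EpRas with TGF-β. Only the EpH4 libraries with TGF-β stood apart, and the other 6 overlapped. With TGF-β, Isg15 rose in EpH4 by 1.58 ± 0.31 (log2, adjusted p = 0.0224, limma) and was lower in EpRas, at -1.70 ± 0.31 (0.00825). Usp18, which removes Isg15 from proteins and dampens interferon receptor signalling, measured 2.06 and 1.36 FPKM in EpH4, 6.61 and 7.38 with TGF-β, 0.356 and 0.479 in EpRas and 0.253 and 0.325 in EpRas with TGF-β. All EpRas libraries lay below all EpH4 libraries. Usp18 was lower in EpRas, at -0.92 ± 0.17 without TGF-β (0.0115) and at -2.63 ± 0.17 with it (7.65e-05), and rose with TGF-β in EpH4 by 1.57 ± 0.17 (0.00174). The difference in the TGF-β response was -1.71 ± 0.25 (interaction term, adjusted p = 0.0293, and between 0.034 and 0.199 under the alternative settings). In EpRas these levels rested on 2 to 5 recovered reads per library.

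Of the 2 OAS-like genes, which lie side by side on chromosome 5, Oasl2 responded to TGF-β and Oasl1 did not pass the test. Oasl2 measured 2.84 and 2.27 FPKM in EpH4, 12.5 and 11.2 with TGF-β, 0.571 and 0.563 in EpRas and 1.15 and 1.04 in EpRas with TGF-β. The groups did not overlap in either line, and the rise in EpH4 was 1.86 ± 0.15 (log2, adjusted p = 0.000513, limma), against 0.42 ± 0.15 (0.24) in EpRas. The interaction term was -1.44 ± 0.22 (0.0358, and between 0.03 and 0.24 under the alternative settings). Oasl2 was lower in EpRas, at -1.18 ± 0.15 without TGF-β (0.00259) and at -2.62 ± 0.15 with it (4.3e-05).

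Oasl1, a regulator of Irf7 translation, measured 4.52 and 5.68 FPKM in EpH4, 7.85 and 6.93 with TGF-β, 1.31 and 1.56 in EpRas and 1.03 and 1.19 in EpRas with TGF-β. EpRas was lower in all 4 libraries, at -1.32 ± 0.16 without TGF-β (log2, adjusted p = 0.00218, limma) and at -1.99 ± 0.16 with it (0.000226). TGF-β gave 0.46 ± 0.16 in EpH4 (0.139) and -0.20 ± 0.16 in EpRas. The oligoadenylate synthetases proper, Oas1a, Oas2 and Oas3, stayed at or under 3.71 FPKM and were untested. How the counting shared reads between the related OAS genes is not given in the sources used here, and their single values are uncertain to that extent.

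Bst2, whose levels are given above, was lower in EpRas, at -1.77 ± 0.29 without TGF-β (log2, adjusted p = 0.00642, limma) and at -2.79 ± 0.29 with it (0.000611). The lines did not overlap. TGF-β was not called for Bst2 in EpH4 (0.51 ± 0.29, 0.335) or in EpRas (-0.50 ± 0.29, 0.462). Rtp4, a receptor-transporting protein, measured 6.58 and 4.30 FPKM in EpH4, 16.2 and 15.1 with TGF-β, 2.04 and 2.19 in EpRas and 2.46 and 3.16 in EpRas with TGF-β. It rose in EpH4 by 1.39 ± 0.20 (0.00672) and was lower in EpRas, at -1.03 ± 0.20 without TGF-β (0.0145) and -2.13 ± 0.20 with it (0.000427).

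**Figure D3:**
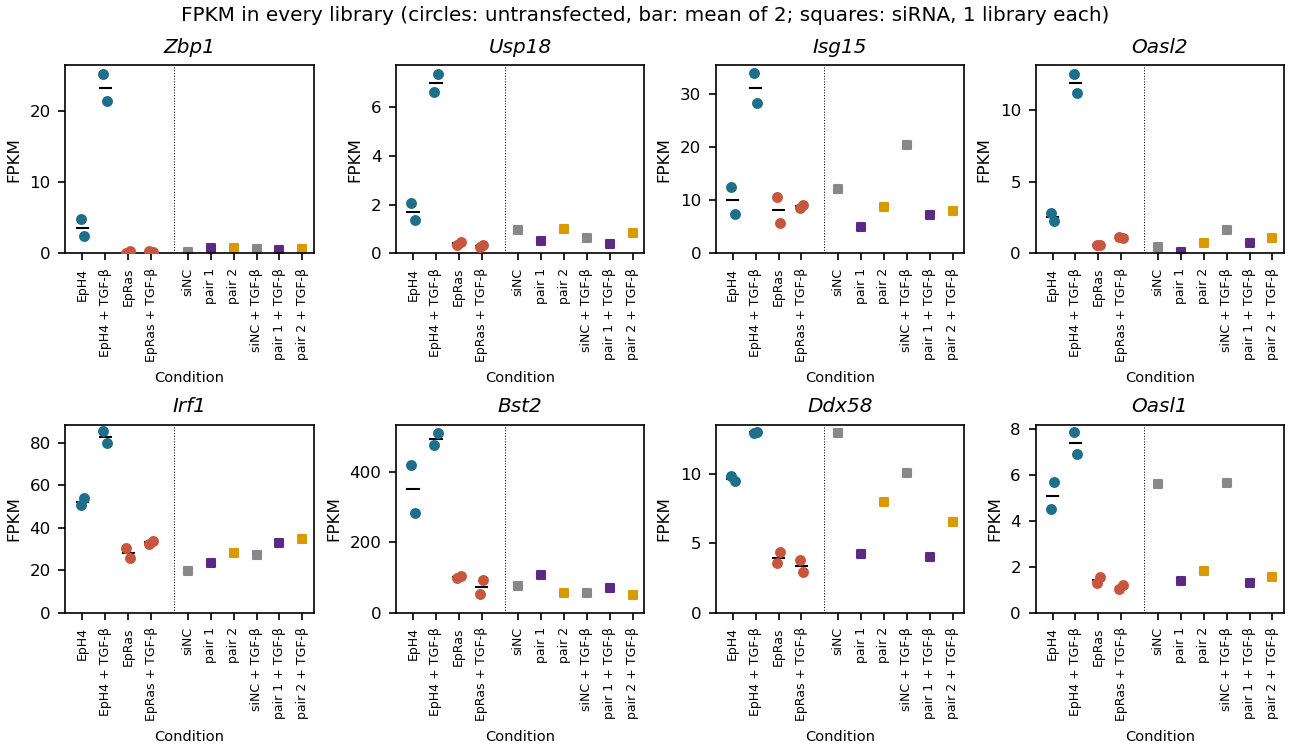
FPKM of 8 of the genes in each library, on linear axes that start at 0 and differ between panels: circles are untransfected libraries with a bar at the mean of 2, and squares are the transfected libraries, 1 per condition. The genes were picked after their values were seen, to show those that rose with TGF-β in EpH4 (Zbp1, Usp18, Isg15, Oasl2, Irf1) beside those that were lower in EpRas without a called TGF-β response (Bst2, Ddx58, Oasl1).

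Parp9, Dtx3l and Parp14 encode ADP-ribosyltransferase-family proteins and the ubiquitin ligase partner of Parp9. Parp9 measured 6.58 and 7.13 FPKM in EpH4, 13.2 and 13.8 with TGF-β, 2.49 and 3.31 in EpRas and 4.90 and 3.19 in EpRas with TGF-β. Dtx3l measured 2.84 and 3.03, 7.58 and 7.24, 2.24 and 2.2, and 2.63 and 1.64 FPKM in the same groups. Parp14 measured 2.29 and 1.39, 5.02 and 4.54, 0.833 and 0.703, and 1.15 and 0.869 FPKM. For all 3 the EpH4 libraries with TGF-β were the highest of the 8. They rose in EpH4 by 0.89 ± 0.20, 1.10 ± 0.18 and 1.04 ± 0.19 on the log2 scale (adjusted p = 0.0379, 0.0111 and 0.0173, limma), and the call of Parp9 was lost with no filter on low values (0.0501). With TGF-β they were lower in EpRas, at -1.55 ± 0.20 (Parp9, 0.002), -1.44 ± 0.18 (Dtx3l, 0.00158) and -1.53 ± 0.19 (Parp14, 0.00161). The gene models of Parp9 and Dtx3l overlap on opposite strands of chromosome 16. The libraries were directional, but whether the counting used the strand is not given in the sources used here, so that reads in the overlap may not be told apart.

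Gbp2, an interferon-induced GTPase, measured 4.46 and 5.46 FPKM in EpH4, 7.85 and 6.83 with TGF-β, 1.24 and 1.80 in EpRas and 1.41 and 1.47 in EpRas with TGF-β. The lines did not overlap, and Gbp2 was lower in EpRas, at -1.25 ± 0.18 without TGF-β (log2, adjusted p = 0.00376, limma) and at -1.77 ± 0.18 with it (0.000515). Trim25, the ubiquitin ligase that acts on Ddx58, measured 24.4 and 18.4 FPKM in EpH4, 33.1 and 29.0 with TGF-β, 20.02 and 13.6 in EpRas and 14.2 and 19.2 in EpRas with TGF-β. Its call with TGF-β was near the threshold (-0.87 ± 0.25, 0.0442), and it was lost with no filter on low values.

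Ifi35 and Ifit2 were called in no comparison. Ifi35 measured 28.7 and 35.0 FPKM in EpH4, 41.7 and 33.7 with TGF-β, 23.6 and 19.7 in EpRas and 20.04 and 35.5 in EpRas with TGF-β, and the lines overlapped with TGF-β. Ifit2, which binds foreign RNA, was the 1 gene of the 19 with a lower log2 level with TGF-β in EpH4. In EpRas 10 of the 19 had positive and 9 negative values. It measured 6.5 and 5.33 FPKM in EpH4, 2.9 and 3.0 with TGF-β, 4.55 and 4.97 in EpRas and 2.75 and 1.5 in EpRas with TGF-β. In both lines both treated libraries lay below both untreated ones, although neither log2 fold change passed the threshold (adjusted p = 0.0623 and 0.0754, limma).

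The 14 untested genes had low levels throughout. Their highest values were those of Oas3, Xaf1, Gbp3 and Ifi44 in EpH4 with TGF-β (3.71, 3.44, 3.29 and 2.99 FPKM). Ifi44 measured 0.189 and 0.186 FPKM in EpH4 and 2.00 and 2.99 with TGF-β, from 3 and 4 recovered reads and 23 and 51. Xaf1 measured 1.28 and 1.47 FPKM in EpH4, 2.76 and 3.44 with TGF-β, 0 and 0.125 in EpRas and 0.414 and 0 in EpRas with TGF-β. With no filter on low values, 10 of the 14 were called lower in EpRas with TGF-β, where 10.8% of all genes were, from Ifit1 (-0.57, adjusted p = 0.0313, limma) to Xaf1 (-1.78, 0.00265). Ifih1, Mx1, Oas1a and Oas2 were not. On the same terms Ifi44 (1.54, 0.00639), Oas1a (0.81, 0.0403) and Mx2 (0.79, 0.015) rose with TGF-β in EpH4, where 4.92% of all genes did.

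Other markers moved with the same groups. Csf1r, a macrophage receptor that was 1 of the leukocyte markers, measured 0.185 and 0.103 FPKM in EpH4 and 6.23 and 5.74 with TGF-β, a rise of 2.61 ± 0.17 (log2, adjusted p = 0.000212, limma), while Ptprc, Itgam, Emr1 and Tyrobp were listed at 0 in all of these libraries. Cd68, the other leukocyte marker that was tested, was at -0.26 ± 0.47 (0.785). Of the 8 epithelial markers, 5 were lower and 1 was higher in EpRas with TGF-β, where 12.3% and 8.92% of all tested genes were, and 4 were lower and 1 higher without it (9.11% and 8.45%). With TGF-β 1 rose in EpH4 (Cdh1, 0.79 ± 0.15, 0.021), where 6.48% of all genes did. In EpRas with TGF-β, Cdh1 was lower, at -2.15 ± 0.15 (0.000114). The part of these markers in the levels of the interferon-stimulated genes was not tested.

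Further genes of the pathway were taken from lists beside the 33. A gene of these lists could also pass the filter through EpH4 libraries alone, as Psmb8 below did. The direction of their counts may therefore be partly fixed by the filter. These counts are descriptions too, and none with no filter is given for these lists. Of 54 tested other interferon-induced genes, 26 were lower and 2 higher in EpRas with TGF-β (limma, adjusted p under 0.05), where 12.3% and 8.92% of all tested genes were. Without TGF-β 17 were lower and 2 higher, where 9.11% and 8.45% were. With TGF-β, 9 rose and 0 fell in EpH4, where 6.48% and 2.91% did, and 2 rose and 0 fell in EpRas, where 1.90% and 1.92% did. Psmb8, a subunit of the immunoproteasome, measured 47.0 and 59.4 FPKM in EpH4, 89.6 and 91.1 with TGF-β, 1.37 and 0.882 in EpRas and 1.55 and 3.0 in EpRas with TGF-β. It was lower in EpRas, at -4.67 ± 0.25 without TGF-β (log2, 3.43e-05) and at -4.84 ± 0.25 with it (2.8e-05). Psmb9, its partner, was lower, at -2.17 ± 0.24 and -2.89 ± 0.24. Ifi47, an interferon-induced GTPase, was called in all 4 comparisons. It was lower in EpRas in both states (-1.97 ± 0.16 and -2.72 ± 0.16) and rose with TGF-β in EpH4 (1.56 ± 0.16, 0.00115) and in EpRas (0.81 ± 0.16, 0.037).

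The examples from the receptor and signalling genes that follow were each called in some comparison, and counts over their list are not reported here. Ifngr2, a chain of the interferon-γ receptor, was lower in EpRas with TGF-β (-0.97 ± 0.15 log2, adjusted p = 0.0038, limma), as was the transcription factor Stat3 (-0.56 ± 0.15, 0.0364). Without TGF-β, Ifngr2 was lower, at -0.86 ± 0.15 (0.00768), while Ifngr1 was higher by 0.64 ± 0.17 (0.0377). With TGF-β in EpH4, Ifngr1 rose by 1.00 ± 0.17 (0.0114), Ifngr2 by 0.71 ± 0.15 (0.0254) and Stat3 by 0.66 ± 0.15 (0.036). In EpRas none of these 3 genes was called with TGF-β by limma, with Ifngr2 nearest the threshold (0.61 ± 0.15, unadjusted p = 0.00391, adjusted p = 0.0799, and between 0.0473 and 0.349 under the alternative settings).

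Of 3 tested interferon-induced chemokines, 2 were lower and 1 higher in EpRas without TGF-β, where 9.11% and 8.45% of all genes were, and 2 were lower with it (12.3%). Cxcl10 was lower in EpRas in both states (-1.74 ± 0.16 without and -2.64 ± 0.16 with TGF-β, adjusted p = 0.000575 and 5.84e-05, limma). Ccl5 was lower without TGF-β (-2.09 ± 0.46, 0.0217) and was at -1.48 ± 0.46 with it (0.0601). Cx3cl1 changed order with TGF-β. It was higher in untreated EpRas (1.42 ± 0.19), rose with TGF-β in EpH4 (2.11 ± 0.19, 0.000756) and was lower in EpRas with TGF-β (-1.17 ± 0.19), with an interaction term of -2.59 ± 0.27 (0.00854). Of 17 sensors and adaptors, 3 were lower and 1 higher in EpRas with TGF-β, where 12.3% and 8.92% of all genes were, and 2 were lower and 1 higher without it (9.11% and 8.45%). Of 15 negative regulators, 3 were lower and 0 higher with TGF-β (12.3% and 8.92% of all genes), and 3 were lower and 1 higher without it (9.11% and 8.45%). With TGF-β, 1 of these genes was called in either line, Socs1 in EpRas (-1.26 ± 0.23, 0.029), where 1.92% of all genes fell. In EpH4 limma called 0 of them, where 6.48% of all genes rose and 2.91% fell. At an unadjusted p under 0.05 there were 2 sensors and adaptors and 4 negative regulators, where 23.9% of all genes were.

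The siRNA libraries ask whether a pair of siRNAs raised these genes as a non-specific response. With 1 library per condition a single difference has no replicate check and is given with no p-value. A fit over both TGF-β states is given separately. The study's methods give the sequences of all its Etv4 and Etv5 siRNAs. The tables and the labels give 1 of them, that of Etv5 in the second pair, shown as the kind of 25-base duplex strand that the cells received.
siEtv5_2: uuaaauuccaugccucggccagucc
The targets were checked first. Etv4 measured 57.4 FPKM with siNC, 11.6 with pair 1 and 27.9 with pair 2 without TGF-β, and 64.3, 12.6 and 18.9 with TGF-β. Etv5 measured 8.85, 1.61 and 1.26 FPKM, and 5.34, 1.24 and 1.2 with TGF-β. The levels with either pair were below siNC in both states, with Etv4 at 20.2% and 48.5% of siNC for pairs 1 and 2 without TGF-β.

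In these libraries 9 of the 33 genes reached 5 FPKM. None of the 9 was at least 2-fold higher with either pair in either state, on log2(FPKM + 1), where 3.34% and 3.41% of all 9094 tested genes were with pair 1 without and with TGF-β, and 3.86% and 2.88% with pair 2. With no filter on low values, none of the 33 was on that scale, which damps the change of genes below 1 FPKM. Of all 15608 genes, 397 and 388 were with pair 1, without and with TGF-β, and 429 and 295 with pair 2. At least 2-fold lower were 3 genes with pair 1 in each state (4.55% and 5.50% of all genes), 1 with pair 2 without TGF-β (4.81%) and 2 with pair 2 and TGF-β (3.98%). The median difference of the 9 genes was -0.18 and -0.44 with pair 1 and -0.43 and -0.29 with pair 2, without and with TGF-β, against 0.01 to 0.03 over all genes. Over all 33 genes with no filter the median was -0.18 and -0.24 with pair 1, and 0.12 and -0.16 with pair 2. Over the 5 genes with a mean of at least 10 FPKM it was 0.12 and 0.06 with pair 1. With pair 2 it was -0.43 and -0.25 over these 5 genes.

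The genes at least 2-fold lower were Oasl1, Isg15 and Ddx58. Oasl1 measured 5.60 FPKM with siNC, 1.39 with pair 1 and 1.82 with pair 2, and 5.63, 1.27 and 1.53 with TGF-β. It was the 1 gene of the set at least 2-fold lower with both pairs in both states, at 24.8% and 32.4% of siNC without TGF-β and 22.5% and 27.1% with it. These levels rested on 80, 27 and 33 recovered reads without TGF-β and 140, 25 and 27 with it. The 95% exact binomial interval of the read ratio was 0.154 to 0.389 for pair 1 and 0.209 to 0.492 for pair 2 without TGF-β, and 0.141 to 0.347 and 0.173 to 0.412 with it. These intervals cover counting error alone, since reads amplified by PCR are not independent molecules.

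Ddx58 measured 12.9 FPKM with siNC, 4.24 with pair 1 and 7.97 with pair 2, and 10.0, 4.01 and 6.52 with TGF-β. Pair 1 lay lower than pair 2 in both states, at 32.8% and 40.0% of siNC against 61.7% and 65.0%. The read ratio was 0.328 (95% interval 0.277 to 0.388) for pair 1 and 0.617 (0.535 to 0.710) for pair 2 without TGF-β, and 0.400 (0.339 to 0.471) and 0.650 (0.563 to 0.749) with it. Isg15 measured 12.1 FPKM with siNC, 5.00 with pair 1 and 8.78 with pair 2, and 20.5, 7.22 and 8.05 with TGF-β. It was lowest with pair 1, and the interval for pair 2 without TGF-β (0.474 to 1.10) included a ratio of 1.

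Bst2 differed in the other direction, although the difference between the pairs was not called (-0.73 ± 0.18 log2, adjusted p = 0.251, limma over both TGF-β states). It measured 75.6 FPKM with siNC, 107 with pair 1 and 55.3 with pair 2, and 54.8, 70.2 and 49.0 with TGF-β. Pair 1 was thus above siNC in both states (read ratio 1.42, interval 1.23 to 1.63, and 1.28, 1.11 to 1.47), and pair 2 was below (0.732, 0.622 to 0.860, and 0.894, 0.761 to 1.05). Irf1 measured 19.7 FPKM with siNC, 23.4 with pair 1 and 28.0 with pair 2, and 27.1, 32.7 and 34.4 with TGF-β, so that both pairs lay above siNC in both states. No reads could be recovered for Irf1, which has no interval, and in a fit over both TGF-β states it was at 0.25 ± 0.16 with pair 1 and 0.41 ± 0.16 with pair 2 (log2, adjusted p = 0.376 and 0.205, limma).

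**Figure D4:**
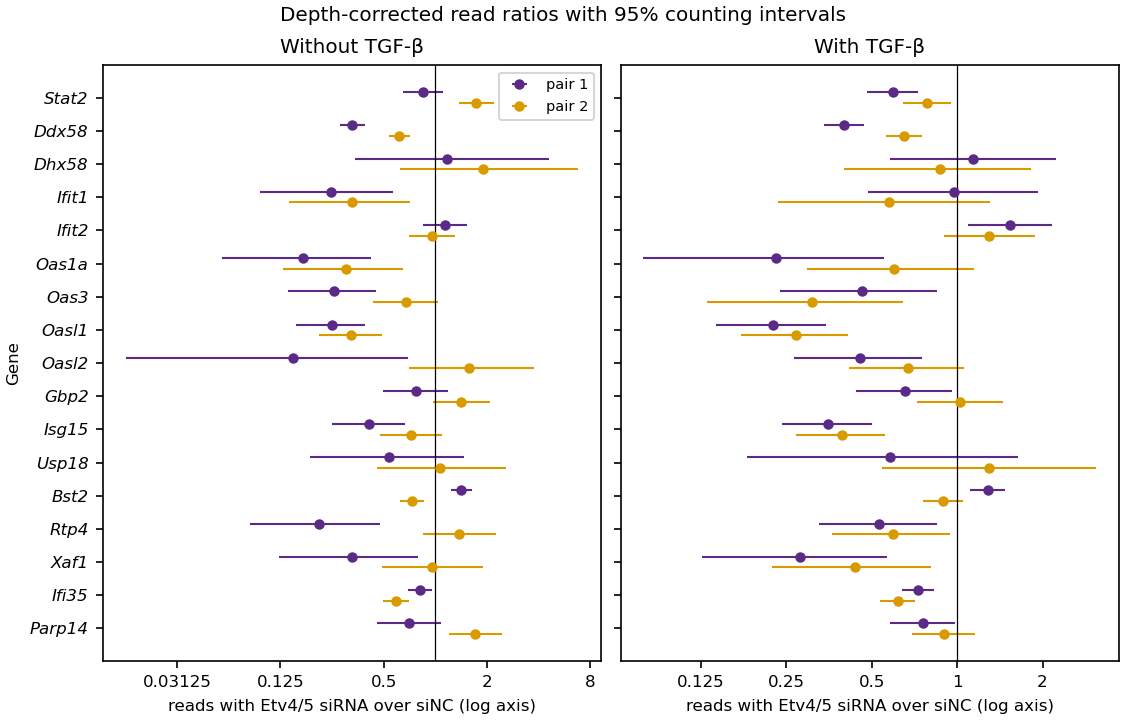
Ratio of recovered reads, scaled for depth, of each siRNA pair to siNC (points, log axis) with 95% exact binomial intervals (bars) for the 17 genes with at least 60 reads over the 6 transfected libraries, without and with TGF-β. A ratio of 1 is siNC. Oasl1 and Ddx58 lie below 1 with both pairs in both states, and Bst2 lies above 1 with pair 1.

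By the read interval alone, a looser measure chosen after seeing the data, more genes differed, and so did many genes at large. Pair 1 without TGF-β had 10 genes lower and 1 higher of the 18 with at least 10 reads over both libraries, where 30.5% of all such genes were lower and 26.1% higher. With TGF-β pair 1 had 12 lower and 3 higher of 21 (31.5% and 29.4%). Pair 2 had 6 lower and 2 higher of 21 without TGF-β (30.4% and 27.1%) and 9 lower and 0 higher of 19 with it (29.8% and 26.6%). Of the 18 genes without TGF-β and 19 with it that had enough reads for both pairs, 0 were higher with both by this measure, where 16.6% of all such genes were without TGF-β and 17.1% with it. Lower with both pairs were 5 without TGF-β (Ifit1, Oasl1, Oas1a, Ddx58 and Ifi35) and 8 with it (Stat2, Isg15, Oasl1, Oas3, Ddx58, Rtp4, Xaf1 and Ifi35), where 20.9% and 20.2% of all such genes were. Both pairs are set against the same siNC library.

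The genes higher with 1 pair were few. Stat2 measured 3.44 FPKM with siNC, 2.91 with pair 1 and 5.96 with pair 2, and 5.5, 3.26 and 4.31 with TGF-β, so that pair 2 stood above siNC without TGF-β (ratio 1.73, 1.37 to 2.2) and below it with TGF-β. Parp14 was higher with pair 2 without TGF-β (1.71, 1.2 to 2.46). With TGF-β, pair 1 was higher for Ifit2 (1.53, 1.09 to 2.16) and for Rsad2 (viperin, an inhibitor of viral replication), where 17 reads stood against 4 (5.36, 1.75 to 21.9). Several genes below 1 FPKM had higher values with pair 2 without TGF-β, on few reads. Ifit3 had 1 read with siNC, 4 with pair 1 and 9 with pair 2 (ratio for pair 2 7.08, interval 0.98 to 310). Ifi44 had 3, 2 and 13 (3.41, 0.936 to 18.6), Gbp3 6, 6 and 17 (2.23, 0.838 to 6.9), and Cmpk2, a mitochondrial nucleotide kinase, 0, 3 and 9, with the lower end of the interval for pair 2 at 1.55. Zbp1 measured 0.234 FPKM with siNC, 0.683 with pair 1 and 0.731 with pair 2. With TGF-β none of these 5 genes was 2-fold higher with pair 2 than with siNC: Ifit3 had 5 reads with siNC and 3 with pair 2, and Cmpk2 5 and 2. Of the ratios given for pair 2, those of Ifit3, Ifi44 and Gbp3 have intervals that include 1, so that a difference was not detectable at this depth.

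Low genes also lay below siNC. Rtp4 measured 2.75 FPKM with siNC, 0.578 with pair 1 and 3.78 with pair 2, and 3.61, 1.92 and 2.14 with TGF-β. Oas1a measured 2.08, 0.353 and 0.627 FPKM, and 1.51, 0.347 and 0.904 with TGF-β. Irf7 measured 2.32, 0.897 and 3.57 FPKM, and 2.97, 0.875 and 1.75 with TGF-β. For Oas1a both pairs were below siNC in both states, whereas Rtp4 and Irf7 were above siNC with pair 2 without TGF-β and below it in the other 3 comparisons.

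The intervals that the authors' software gave for each FPKM overlapped between siNC and the pair for every one of the 33 genes in all 4 comparisons. They were wide, and of all 9094 genes 1.30% and 1.94% did not overlap with pair 1, without and with TGF-β, and 1.18% and 1.04% with pair 2. Those of Etv4 did not overlap in 3 of the 4 comparisons and those of Etv5 in 2.

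A limma fit over the 6 libraries with terms for siRNA and TGF-β lets the 2 TGF-β states stand in for replicates, with 2 residual degrees of freedom. With pair 1, 2 genes of the set were called lower than with siNC, where 2.24% of all genes were. They were Oasl1 (-1.51 ± 0.16 log2, adjusted p = 0.0263, limma) and Ddx58 (-1.27 ± 0.17, 0.0324). Isg15 was at -1.26 ± 0.24 (0.0567). With pair 2, Oasl1 was called lower than with siNC (-1.31 ± 0.16, 0.0455), where 0.946% of all genes were. Isg15 was at -0.84 ± 0.24 (0.128) and Ddx58 at -0.59 ± 0.17 (0.124). None of the 9 tested genes of the set was called higher than with siNC, where 1.17% of all genes were with pair 1 and 0.440% with pair 2. The difference between the pairs was called for 0 of the 9 tested genes of the set and for 0 of all 9094 genes by limma, with 2 of the 9 (Bst2 and Ddx58) at an unadjusted p under 0.05, where 13.6% of all genes were, and 0 called under every alternative setting. For comparison, Etv4 itself was called with pair 1 (-2.24 ± 0.23, 0.0263) and not with pair 2 (-1.37 ± 0.23, 0.0592).

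TGF-β in the siNC libraries moved none of the 9 genes by 2-fold, where 3.23% of all genes were at least 2-fold higher and 2.51% lower. The log2 difference was 0.71 for Isg15, 0.66 for Parp9, -0.34 for Ddx58 and -0.46 for Bst2. Of 48 tested other interferon-induced genes, the limma fit over both TGF-β states called 1 higher and 2 lower with pair 1, where 1.17% of all genes were called higher and 2.24% lower, and 0 higher and 1 lower with pair 2 (0.440% and 0.946%). Tap2, a subunit of the peptide transporter for antigen presentation, measured 6.18 FPKM with siNC, 12.9 with pair 1 and 10.2 with pair 2, and 7.06, 18.9 and 9.80 with TGF-β. It was called higher with pair 1 at the threshold (1.13 ± 0.20, adjusted p = 0.0499, limma) and was at 0.53 ± 0.20 (0.191) with pair 2. Ifi47 was at 1.08 ± 0.24 with pair 1 (0.0751). Casp1 (caspase-1) was at least 2-fold lower with both pairs in both states, and it was called lower with pair 1 (-1.99 ± 0.18, 0.0263) and with pair 2 (-1.33 ± 0.18, 0.0473). Mlkl, the executor of necroptosis, was called lower with pair 1 (-1.08 ± 0.17, 0.0411).

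Placed beside the untransfected EpRas libraries, from the separately normalized table and with no test, the siNC libraries were higher for part of the set. Of the 19 genes of the set that reached 5 FPKM in either table, 7 lay above all 4 untransfected EpRas libraries in both siNC libraries and 0 lay below, where 21.6% and 13.0% of all such genes did. Oasl1 and Ddx58 were at least 2-fold above all 4, where 1.71% of all such genes were, and 0 were at least 2-fold below, where 0.336% were. Ddx58 measured 2.91 to 4.37 FPKM in untransfected EpRas, 12.9 and 10.0 with siNC, and 4.01 to 7.97 with the Etv4/Etv5 pairs. Oasl1 measured 1.03 to 1.56 FPKM in untransfected EpRas, 5.60 and 5.63 with siNC, and 1.27 to 1.82 with the pairs. Thus Oasl1 with the pairs was near its untransfected level, and for this gene siNC was the condition that stood apart. Ddx58 with pair 2 also lay above all 4 untransfected EpRas libraries in both states. Between the untransfected and the transfected libraries, transfection, the separate processing and the separate normalization cannot be told apart. The difference between siNC and the pairs rests on 1 library per condition, and its cause was not tested.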

How the data were processed

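RNA-seq was analysed for 8 untransfected and 6 transfected libraries. Per the submitters' processing notes and the study's methods, the authors aligned directional Ion Proton reads to mm10 with TopHat2 2.0.11 and Bowtie2, and deposited FPKM values per gene and library from Cuffdiff (Cufflinks 2.2.0), in 1 table for each set of libraries. Strand and multi-read settings are not given in the sources used here. Sums of FPKM were 492553 to 619738 per untransfected library. Genes without an OK status (3 and 2 of 23284) were left out, and no per-sample column was unused. The 33 genes, the other lists and the tests were chosen with earlier results of these data known.

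From the deposited FPKM, log2(FPKM + 1) was tested with limma 3.58.1 (R 4.3.3) over genes reaching 5 FPKM in at least 1 library, with 1 mean per group over all 8 libraries and Benjamini-Hochberg adjustment over all genes tested. The siRNA libraries were compared by size (2-fold) and in an additive limma model. FPKM hold no counts, so count tests were not used. Whole reads were recovered from FPKM steps for 8888 of 13613 genes above 0 in at least 5 libraries (within 0.02 of a whole number). They gave relative depth and 95% exact binomial intervals, and absolute depth is unknown. In single libraries 5 FPKM corresponded to 43.6 to 158 reads at the median gene. Genes given with a value in every library were those called in any limma comparison, those past 2-fold with both siRNA pairs or past 4-fold with 1, and the 3 with the highest mean. Ifit2 and other genes given so were chosen after their values were seen. Python 3.11.15 (numpy 2.4.6, pandas 2.3.3, scipy 1.17.1) was used otherwise. The limma step was tested on simulated data. Alternatives were other pseudocounts (0.1 and 5), filters (none, or a mean of at least 10 FPKM), scalings (median, quantile), fold thresholds (1.5), a fit of the compared groups alone, a variance trend, a replicate block and leaving out each library. Of the other lists, examples are named, and counts over the receptor and kinase list are not reported here.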

Additional observations from a re-analysis of the deposited data

Results flagged for a closer look

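In 2 genes the response to TGF-β differed between the lines by a test of the difference itself, the limma interaction term. For Oasl2 the log2 effect of TGF-β was 1.86 in EpH4 and 0.42 in EpRas, a difference of -1.44 ± 0.22 (SE, adjusted p = 0.0358). For Usp18 it was 1.57 in EpH4 and -0.14 in EpRas, a difference of -1.71 ± 0.25 (adjusted p = 0.0293). Both treated EpH4 libraries lay above both untreated ones for each gene. Each gene reached 5 FPKM only in the treated EpH4 libraries, and Usp18 in EpRas rested on 2 to 5 recovered reads per library. Both calls depended on settings, as given under the dependence on processing.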

How the results depend on the processing

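The limits are the 2 libraries per untransfected group, the 1 library per siRNA condition and levels near the filter. Requiring a mean of at least 10 FPKM left 5 genes of the set, and the calls became 2 for the lines without TGF-β, 3 with TGF-β, 2 for TGF-β in EpH4 and 0 for the interaction. Of all 6187 genes under this filter 880, 1092, 559 and 24 were called in the same order. With no filter 26 were called for the lines with TGF-β, all lower in EpRas, where 10.8% of all 15244 genes were called lower. A pseudocount of 0.1 called 1 gene for TGF-β in EpRas and 1 for the interaction, where 342 and 53 of all 9100 genes were called. Quantile scaling called 1 for the interaction and a variance trend 0, where 73 and 45 of all genes were called. When 1 library was left out, which leaves 1 library in its group, calls over all genes went down in some fits and up in others. Leaving out each library in turn gave 7 to 11 calls for the lines without TGF-β, 12 to 18 with it, 3 to 12 for TGF-β in EpH4, 0 to 1 for TGF-β in EpRas and 0 to 1 for the interaction. For TGF-β in EpH4, leaving out either treated EpH4 library left 3 calls, and leaving out untreated EpH4 library 1 or 2 left 6 or 4. The interaction kept 0 calls without either treated EpH4 library, without untreated EpH4 library 2 or without untreated EpRas library 1. Without EpRas library 1 with TGF-β, 1 gene was called lower with TGF-β in EpRas. Over the results called for single genes, 316 values under the other alternatives kept the call, 29 lost it and 0 changed direction, and 252, 64 and 0 when 1 library was left out. Of 55 results of the 19 genes that were not called, 9 were called under at least 1 alternative and 11 changed sign.

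With replicate number as a block, 10 genes were called for the lines without TGF-β, 16 with it, 8 for TGF-β in EpH4, 0 in EpRas and 0 for the interaction. Of all 9100 genes 1121, 1520, 547, 222 and 31 were called in the same order. With no block 1598, 1935, 855, 348 and 73 of all genes were called. Deviations of same-numbered libraries correlated between -0.347 and 0.0785, so the numbers do not pair the libraries. Crossing the numbers of the untreated EpRas libraries, chosen after seeing the data, gave 11 calls for the lines without TGF-β and 0 for TGF-β in EpRas. Of all genes 1702 and 363 were called so.

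Of the siRNA counts, a pseudocount of 5 gave 0, 1, 0 and 0 genes past 2-fold for pair 1 without and with TGF-β and pair 2 without and with it, against 3, 3, 1 and 2. All of these were lower, as were 227, 252, 243 and 174 of all 9094 genes at a pseudocount of 5. A mean of at least 10 FPKM gave 1, 1, 0 and 1, all lower, where 244, 290, 278 and 187 of all 6430 genes were lower. No filter gave 5 for pair 1 without TGF-β, all lower, where 534 of all 15608 genes were lower. A 1.5-fold threshold gave 4 for pair 2 without TGF-β, of which 1, Stat2, was higher and 3 were lower. At that threshold 1176 of all 9094 genes were higher and 1256 lower. The read interval, chosen after seeing the data, gave 11, 15, 8 and 9 in either direction, and the shares of all genes are given with it above. In the additive model a mean of at least 10 FPKM left 0 calls for either pair, where 157 and 58 of all 6430 genes were called with pairs 1 and 2. A pseudocount of 5 left 0 for pair 2, where 110 of all 9094 genes were called. The cause of these changes was not tested beyond the smaller number of genes under the stricter filter.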
